A study of Mus musculus with 2 samples.

Results

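The immediate early genes described here are Fos, Fosb, Junb, Jun, Egr1, Egr2, Egr3, Arc, Npas4 and Nr4a1. They were chosen by name, with earlier results of these data known. Their values were read from the gene and transcript tables, where they make up 10 of 55536 genes and 36 annotated transcripts. The tissue was reported as a layer of hippocampus of male B6CASTF1/J mice (hybrids of C57BL/6J and CAST/EiJ) aged 14 days. Total RNA was sequenced in 2 libraries, biological replicates 1 and 2 of a single group, each from 300 ng of RNA with ERCC spike-ins (synthetic control RNAs) for stranded, ribosome-reduced libraries. The labels list 3 males for each library, different ones for each, and do not say whether the RNA was pooled. No treatment or control group is named, so the data give levels of these genes at 1 age and their spread over n = 2 libraries, and no response to a stimulus.

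Immediate early genes are transcribed within minutes of synaptic activity or growth factor signalling, without a need for new protein synthesis. Calcium and kinase signals reach transcription factors already bound at their promoters, mainly CREB at cAMP response elements and SRF with its partners at serum response elements. Most of their products are transcription factors that act on later genes, while Arc acts at synapses. Their mRNAs are typically short-lived, and in the hippocampus they are widely used as marks of recently active neurons.

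The letters of the CREB binding site were searched for around the transcription starts. RefSeq promoter windows (GRCm38.p6, 250 bases before to 50 after the start) were matched for 7 of the 10 genes, Fos, Fosb, Junb, Jun, Egr2, Npas4 and Nr4a1. The cAMP response element core, TGACG on either strand, was present in 6 of these 7 windows (all but that of Jun) and in 20.8% of the 32851 windows of the table. The following 5 stretches end at or just before the first exon of the gene's leading coding transcript, the one with the highest mean TPM. They run 5′ to 3′ on the gene's own strand. Capitals show the core (TGACG or its reverse complement CGTCA), the CArG box and TATAAA.
Fos, chr12:85473740-85473889, plus strand: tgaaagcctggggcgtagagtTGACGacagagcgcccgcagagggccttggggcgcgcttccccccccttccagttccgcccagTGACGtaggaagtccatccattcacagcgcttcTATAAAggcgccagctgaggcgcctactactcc
Fosb, chr7:19310052-19310195, minus strand: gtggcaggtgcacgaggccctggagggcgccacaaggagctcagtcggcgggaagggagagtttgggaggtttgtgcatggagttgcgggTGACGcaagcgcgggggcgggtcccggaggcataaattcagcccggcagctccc
Junb, chr8:84978749-84978898, minus strand: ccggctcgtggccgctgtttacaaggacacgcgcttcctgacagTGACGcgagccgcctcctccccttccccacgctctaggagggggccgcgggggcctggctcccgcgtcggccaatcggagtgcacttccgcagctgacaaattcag
Egr2, chr10:67537719-67537868, plus strand: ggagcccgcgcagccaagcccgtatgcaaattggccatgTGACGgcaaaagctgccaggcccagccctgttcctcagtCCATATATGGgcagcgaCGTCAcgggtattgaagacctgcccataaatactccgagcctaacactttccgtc
Nr4a1, chr15:101266696-101266845, plus strand: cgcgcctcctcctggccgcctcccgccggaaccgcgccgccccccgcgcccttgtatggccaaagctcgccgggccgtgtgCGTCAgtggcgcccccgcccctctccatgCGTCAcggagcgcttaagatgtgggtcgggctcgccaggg
Positions are counted back from the RefSeq start, with -1 the base before it. Fos held the core at -129 and -66 and TATAAA at -33. Fosb held 1 core at -60, and Junb held 1 at -106. In Egr2 a CArG box, the binding sequence of SRF, began at -72 between cores at -111 and -55. This was the only CArG box among the 7 windows, against 1.63% of all windows. Sequence more than 250 bases before a start was not searched, nor were the promoters of Egr1, Egr3 and Arc. Sites there would therefore be missed. Nr4a1 held 4 cores, of which those at -69 and -40 are in the stretch shown and those at -233 and -213 lie before it. Egr2 and Nr4a1 also have transcripts that start upstream, at 67535475 and 101254269, whose promoters were not searched. In the kallisto-layout table the upstream Nr4a1-202 held 70.4% of the gene's TPM in replicate 1 and 95% in replicate 2. Npas4 held cores at -179 and -169, in a window that lies inside an annotated exon and is not printed. The RefSeq start of that window is 345 bases downstream of the start of the leading coding transcript, Npas4-201. The window, counted among the 6 with a core, thus does not cover the promoter of Npas4-201. The AP-1 site TGANTCA, bound by dimers of Fos and Jun proteins, was in 0 of the 7 windows and in 7.81% of all windows. The EGR core GTGGGCG was in 0 of 7 and in 7.97% of all, and TATAAA was in 2 of 7 (Fos, and Junb at the start base itself) and in 13.6% of all. All motifs were searched on both strands. A match is a run of letters and not a measured binding site.

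All 10 genes lay below the median expressed gene in span and exons, Nr4a1 (percentile 42.9 in span) and Npas4 (46.3 in exons) least so. Their genomic spans had a median of 5.29 kb, against 25.8 kb over 12733 expressed protein-coding genes (mean TPM of at least 1, with an annotated 3′ UTR), and all 10 lay below that median. Jun (3.19 kb) and Fos (3.38 kb) were the shortest, and Nr4a1 (20.5 kb) was the longest. The leading coding transcripts of Jun and Junb had 1 exon, those of Egr2 and Egr3 had 2, and those of Arc and Egr1 had 3. Fos and Fosb had 4, Nr4a1 had 7 and Npas4 had 8, against a median of 9 over the expressed genes. The 3′ UTRs carried ATTTA, the core letters of AU-rich elements through which many short-lived mRNAs are degraded, in 9 of the 10 genes, against 66.5% of expressed genes. Per kilobase of 3′ UTR the median over the 10 genes was 2.57 copies, against 1.23 over expressed genes, and 8 of the 10 lay above 1.23. Nr4a1 had 5.52 copies per kilobase, Fos 4.91, Junb 4.12 and Jun 3.24. Egr3 had the most copies, 7 in 2645 bases of 3′ UTR. Fosb had 1 copy in 2145 bases, and Arc had 0 in 1668 bases.

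**Figure D1:**
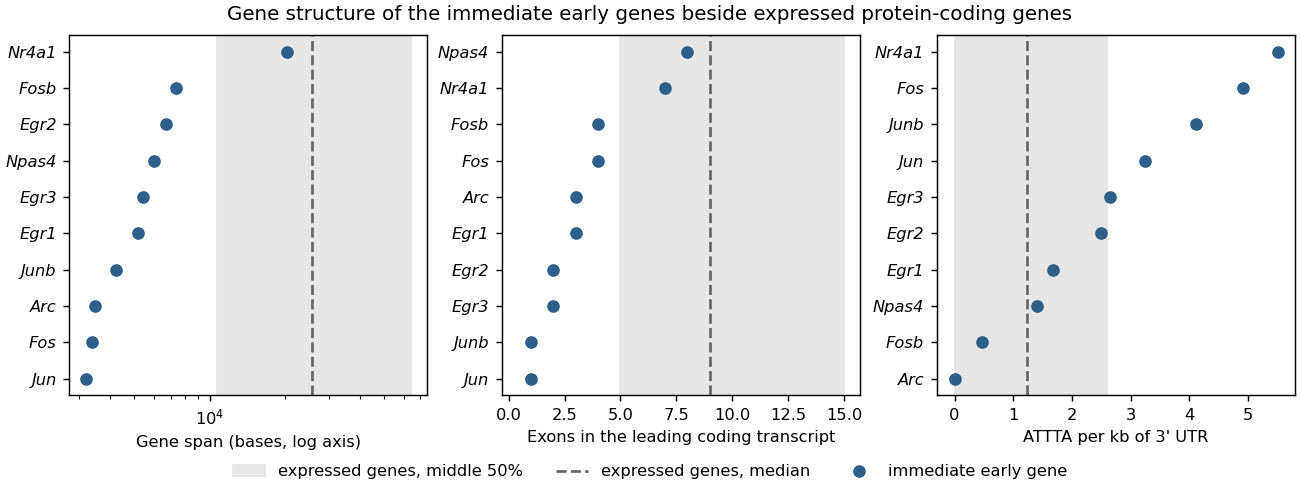
Gene span in bases on a log axis, number of exons, and ATTTA copies per kilobase of 3′ UTR for each of the 10 immediate early genes (points), with the median (dashed line) and middle 50% (grey band) of 12733 expressed protein-coding genes. All 10 genes lie left of the median in span and in exons, and 8 of 10 lie right of it in ATTTA density.

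At 14 days every one of the 10 genes was detected, at 1 TPM or more in both libraries. TPM is a level scaled to a fixed total per library and corrected for transcript length. The median level over the 10 genes was 22.9 TPM in replicate 1 and 21.5 TPM in replicate 2, against 3.51 and 3.57 TPM over all protein-coding genes. Levels fell into a higher set of 6 genes, Egr1, Egr3, Jun, Arc, Junb and Nr4a1, and a lower set of 4, Fos, Npas4, Fosb and Egr2. Expected counts, the estimated reads per gene, summed to 29144892 in replicate 1 and 31755578 in replicate 2, and each of the 10 genes had at least 56 counts in both. The deposited posterior standard deviation of the gene count was 0 for all 10 in both libraries, so no uncertainty in assigning reads to these genes was recorded. In bulk tissue, fewer cells that express a gene and less of its RNA per cell cannot be told apart.

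**Figure D2:**
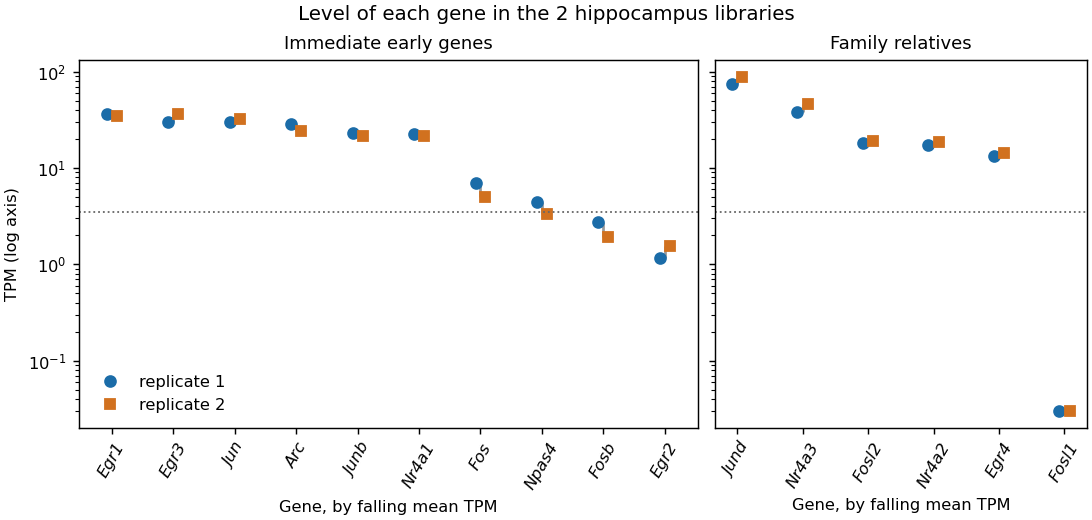
TPM of the 10 immediate early genes and of 6 relatives from the same families in replicate 1 (circles) and replicate 2 (squares), on a log axis. The dotted line marks the median of protein-coding genes in replicate 1, 3.51 TPM. The 6 genes from Egr1 to Nr4a1 lie between 21.5 and 36.5 TPM, and Egr2 is lowest.

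The zinc finger factors of the EGR family spanned the whole range. Egr1, the family member most used as an activity mark (ENSMUSG00000038418.7, chromosome 18, 34859823 to 34864984, mm10), had 36.4 TPM in replicate 1 and 34.7 TPM in replicate 2. Egr3, which like Egr1 is known to regulate Arc (chromosome 14, 70077203 to 70082614), had 30.2 and 36.5 TPM. The values of these genes overlapped, with Egr1 higher in replicate 1 and Egr3 higher in replicate 2. Transcripts not annotated as protein-coding held 37.1% of the TPM of Egr3 in replicate 1 and 39.9% in replicate 2, against 0% for Egr1. Coding Egr3-204 and Egr3-201 had 14.25 and 4.77 TPM in replicate 1 and 17.33 and 4.6 TPM in replicate 2. Over coding transcripts alone, Egr1 was thus higher than Egr3 in both libraries. Egr2, which also drives the myelination program of Schwann cells in peripheral nerve (chromosome 10, 67535475 to 67542188), had 1.15 and 1.55 TPM. It was the lowest of the 10 genes in both libraries, and Egr1 exceeded it by 4.73 ± 0.35 on the log2 scale, or 26.6-fold (SD, n = 2). Egr3 exceeded it by 4.64 ± 0.11, or 24.9-fold. The fourth member, Egr4, had 13.4 and 14.2 TPM, between Egr3 and Egr2 in both libraries.

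Of the AP-1 subunits, Jun led the 4 studied genes. Jun, which can form dimers with itself or with Fos proteins (chromosome 4, 95049034 to 95052222), had 30.2 TPM in replicate 1 and 32.6 TPM in replicate 2. Junb, a weaker activator that can oppose Jun at some targets (chromosome 8, 84974484 to 84978718), had 22.95 and 21.56 TPM. The log2 ratio of Junb to Jun was -0.50 ± 0.14 and did not pass the rule for a difference, namely the same sign in both libraries and a mean beyond both 0.5 and 2 SD. Fos, the dimer partner that binds DNA with Jun proteins (chromosome 12, 85473890 to 85477273), had 6.92 and 4.96 TPM. Fosb (chromosome 7, 19302696 to 19310051), whose truncated splice form ΔFosB is known to accumulate on repeated stimulation, had 2.73 and 1.90 TPM. Fos exceeded Fosb 2.57-fold (log2 1.36 ± 0.03). Both Fos genes were thus lower than both Jun genes in each library.

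The relatives of these subunits differed widely. Jund, the Jun family member regarded as mostly constitutive, had 75.0 and 88.4 TPM, and Junb lay below it by a log2 ratio of -1.87 ± 0.23 (3.66-fold). Fosl2 had 18.1 and 19.1 TPM, and Fos lay below it by -1.66 ± 0.39 (3.17-fold). Fosl1 had 1 count in each library, below the 3 counts that an observed 0 would allow. An antisense gene, Junos, overlaps Jun and had 22 counts in replicate 1 and 23 in replicate 2, against 1884 and 2166 for Jun. The sources used here do not say whether counting used strand, so reads of Junos and Jun may not be fully separate. Junb likewise overlaps Prdx2, on the other strand, in the region of its minor transcript Junb-202.

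Among the remaining genes, Arc encodes a capsid-like protein that acts at dendrites and drives AMPA receptor endocytosis (chromosome 15, 74669083 to 74672570). It had 28.7 TPM in replicate 1 and 23.9 TPM in replicate 2. Npas4, a bHLH-PAS factor induced in neurons by calcium entry that promotes inhibitory synapses on excitatory cells (chromosome 19, 4984355 to 4990316), had 4.41 and 3.33 TPM. Arc exceeded Npas4 6.84-fold (log2 2.77 ± 0.1). Nr4a1, an orphan nuclear receptor also called Nur77 (chromosome 15, 101254269 to 101274795), had 22.8 and 21.46 TPM. Its relative Nr4a3 was higher, at 37.8 and 45.8 TPM, and the log2 ratio of Nr4a1 to it was -0.91 ± 0.26 (1.88-fold). Nr4a2 had 17.5 and 18.8 TPM, and its ratio to Nr4a1 did not pass the rule (0.29 ± 0.14 for Nr4a1 over Nr4a2, against -0.12 ± 0.21 in the kallisto-layout table).

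By mean TPM over all annotated transcripts of each gene the order was Egr1, Egr3, Jun, Arc, Junb, Nr4a1, Fos, Npas4, Fosb and Egr2. Of the 9 neighbouring pairs, 3 differed beyond their spread. Nr4a1 exceeded Fos by 1.92 ± 0.28 on the log2 scale (3.78-fold). Fos exceeded Npas4 by 0.61 ± 0.053 (1.53-fold), and Npas4 exceeded Fosb by 0.75 ± 0.083 (1.68-fold). These levels include transcripts not annotated as protein-coding. Of the leading coding transcripts, Fos-201 had 4.66 TPM in replicate 1 and 3.05 TPM in replicate 2, and Npas4-201 had 1.61 and 1.97 TPM. Fosb-201 had 2.44 and 1.58 TPM, so by these transcripts the order of Npas4 and Fosb reversed in replicate 1. Fosb over Egr2 averaged 0.77 with an SD of 0.67, as the ratio was 1.25 in replicate 1 and 0.29 in replicate 2, and it did not pass. The 5 pairs above Nr4a1 had mean ratios between 0.01 and 0.26 and did not differ. Within protein-coding genes, Egr1 lay at percentile 86.8 in replicate 1 and 85.1 in replicate 2, Fos at 57.7 and 53.4, and Egr2 at 41.3 and 43.3.

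The libraries also differed from each other in these genes. Each gene's counts in both libraries were set against each other with an exact binomial test, scaled by TMM (a trimmed mean of ratios) and adjusted by Benjamini-Hochberg over 18322 genes. A call means that these libraries differ by more than counting error, and it says nothing about conditions. Of all genes 22.8% were called, made up of 10.3% with the higher level in replicate 1 and 12.5% with the higher level in replicate 2. Among the 10 immediate early genes 6 were called, 5 of them higher in replicate 1 (Fos, Fosb, Npas4, Arc and Egr1) and 1 higher in replicate 2 (Egr3). The median log2 ratio of replicate 1 to replicate 2 was 0.12 over the 10 genes and -0.0022 over all genes tested. Genes with more counts were called more often, with 28.3% called at a mean count of 50 or more. When scaled by spike-in totals, the median of all genes moved to -0.11 and the calls split into 5.46% higher in replicate 1 and 30.1% higher in replicate 2.

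Fosb showed the widest ratio, with 202 counts in replicate 1 and 141 in replicate 2, a log2 ratio of 0.66 (95% counting interval 0.34 to 0.98, adjusted p = 0.00032). Fos had 221 and 160 counts, a ratio of 0.60 (0.30 to 0.91, adjusted p = 0.00051). Npas4 had 302 and 240 counts, a ratio of 0.47 (0.22 to 0.72, adjusted p = 0.0016). These are 3 of the 4 genes of the lower set, and all 3 were higher in replicate 1. Arc had 1710 and 1521 counts and a ratio of 0.31 (0.21 to 0.41, adjusted p = 3.7e-08). Egr3 differed the other way, with 1949 counts in replicate 1 and 2566 in replicate 2, a ratio of -0.26 (-0.34 to -0.17, adjusted p = 6e-08). These 5 genes kept their calls under every scaling, count filter and table tried with the binomial test.

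Egr1 had 2305 counts in replicate 1 and 2339 in replicate 2, a ratio of 0.12 (0.03 to 0.20, adjusted p = 0.028). That call was lost with DESeq2 size factors (adjusted p = 0.073), with total counts (0.061), with spike-in totals (0.91) and with the kallisto-layout counts (0.18), at ratios between 0.01 and 0.10. Jun had 1884 and 2166 counts and was not called (-0.06, adjusted p = 0.36), but was called higher in replicate 2 with spike-in totals (-0.17) and with the kallisto-layout counts (-0.13). Junb, with 782 and 789 counts, and Nr4a1, with 935 and 961, had ratios of 0.13 and 0.10 and were not called. The ratio of Nr4a1 became -0.01 with spike-in totals. Egr2, at 56 and 73 counts, had an interval from -0.77 to 0.28. If libraries are assumed to vary by a coefficient of variation of 0.1 beyond counting (edgeR exact test), 0 of the 10 genes were called. Over all genes 0.944% were called. An unadjusted p under 0.05 was found for 3 of the 10 (Fos, Fosb and Npas4) and for 1182 of all 18322 genes tested.

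**Figure D3:**
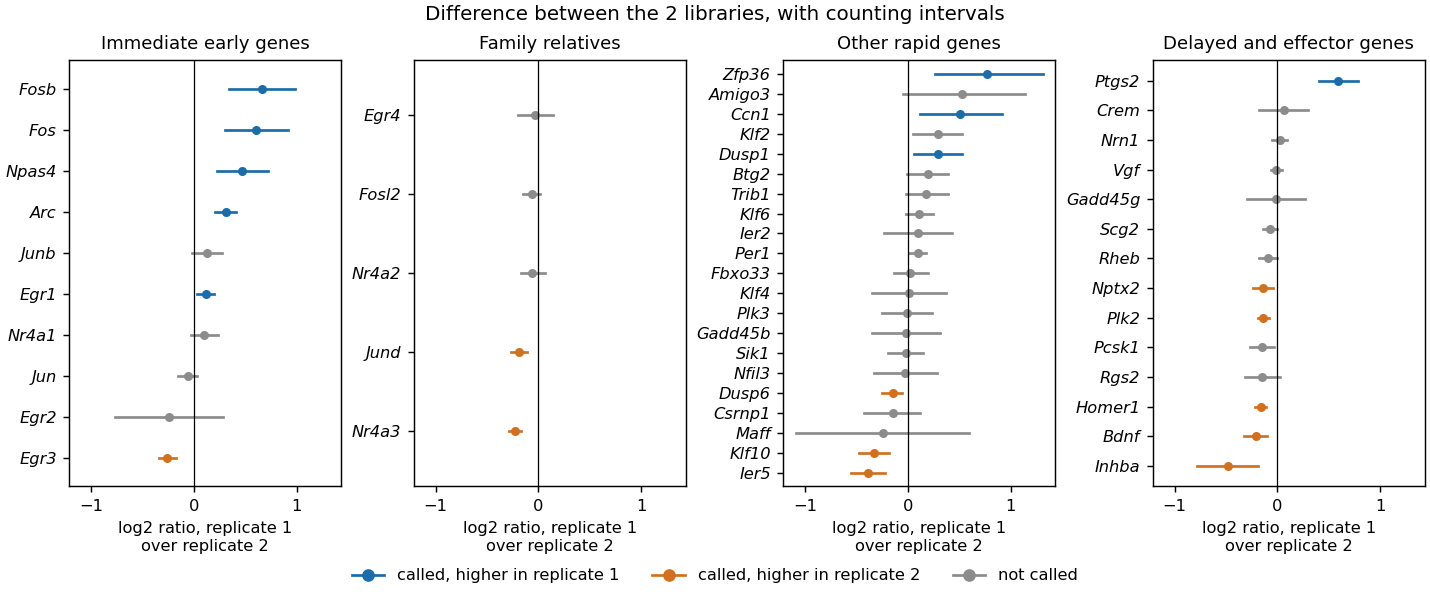
log2 ratio of replicate 1 over replicate 2 with 95% counting intervals for the 10 immediate early genes, their relatives, other rapidly induced genes and delayed or effector genes, for genes with a mean count of 10 or more. Colour marks the 6 called immediate early genes, of which Fosb, Fos, Npas4, Arc and Egr1 lie right of 0 and Egr3 lies left of it.

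All 5 relatives with enough counts had ratios below 0, and 2 were called (40%), both higher in replicate 2. Of all genes tested 22.8% were called, and of those with a mean count of 50 or more 28.3%. Nr4a3 had 3860 counts in replicate 1 and 4973 in replicate 2 (-0.23, adjusted p = 8.2e-12), and Jund had 2376 and 2982 (-0.19, adjusted p = 2.8e-05, exact binomial tests). Egr4, Fosl2 and Nr4a2 had ratios of -0.03, -0.06 and -0.06 and were not called.

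Of 22 other rapidly induced genes, 21 were tested, 3 were called higher in replicate 1, 3 higher in replicate 2 and 15 were not called. Their median ratio was 0.02. The share called was 28.6%, near the 28.3% of all genes with a mean count of 50 or more (22.8% of all genes tested). Those higher in replicate 1 were Zfp36, whose product binds AU-rich mRNAs and promotes their decay (0.77), the matricellular gene Ccn1 (0.51) and the MAP kinase phosphatase gene Dusp1 (0.29). Those higher in replicate 2 were Ier5 (-0.39), the zinc finger factor Klf10 (-0.33) and Dusp6, an ERK phosphatase (-0.15). By level, Dusp6 at 35.2 and 42.3 TPM and the clock gene Per1 at 36.4 and 38.0 TPM stood beside Egr1. Maff (0.82 and 0.76 TPM) and Atf3 (0.33 and 0.23 TPM) stayed under 1 TPM. The calls of Dusp1 and Ccn1 did not hold without the count filter or with spike-in totals. That of Dusp1 was also lost with DESeq2 size factors and with total counts, and that of Ccn1 with the kallisto-layout counts.

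The list of 14 delayed and effector genes had 1 call higher in replicate 1, 5 higher in replicate 2 and a median ratio of -0.11. In all 42.9% were called, against 22.8% of all genes tested and 28.3% of those with a mean count of 50 or more. Ptgs2, the inducible cyclooxygenase COX-2, had 546 counts in replicate 1 and 399 in replicate 2 (0.59, adjusted p = 1.2e-08, exact binomial test). Those higher in replicate 2 were the activin subunit Inhba (-0.48), Bdnf (-0.21), the postsynaptic scaffold Homer1 (-0.16), the pentraxin Nptx2 (-0.14) and Plk2 (-0.14). Bdnf, the neurotrophin, had 14.3 TPM in replicate 1 and 17.2 TPM in replicate 2. Several effectors were more abundant than any of the 10 immediate early genes, with Vgf at 133 and 138 TPM, Plk2 at 98.5 and 108 TPM, Nrn1 at 103 and 104 TPM and Scg2 at 71.0 and 76.2 TPM.

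Of 20 genes for upstream kinases, transcription factors and repressors, 2 were called higher in replicate 1, 5 higher in replicate 2 and 13 were not called (median -0.03). These calls made up 35%, against 22.8% of all genes tested and 28.3% of those with a mean count of 50 or more. Mrtfa, an SRF coactivator, had a ratio of 0.24 and the histone deacetylase gene Hdac4 had 0.10. The call of Hdac4 was lost with DESeq2 size factors, with total counts, with the kallisto-layout counts and with spike-in totals, where its ratio was -0.01. Arnt2, a dimer partner of NPAS4, had -0.22, the activity-regulated factor Mef2c -0.19, the ERK-family kinase gene Mapk3 -0.16, the topoisomerase gene Top2b -0.15 and Mef2d -0.11. The most abundant of these were the calcium-dependent kinase gene Camk4 at 88.0 and 92.7 TPM, Hdac5 at 82.5 and 88.4 TPM and Arnt2 at 71.9 and 82.8 TPM.

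Markers of other cells and of neighbouring tissue moved between the same libraries. Their lists, too, were chosen with earlier results of these data known. All 8 oligodendrocyte markers were higher in replicate 1, where they summed to 1771 TPM, against 942.9 TPM in replicate 2, with Mbp at 813 and 439 TPM. All 4 thalamic markers were higher in replicate 1 (summed 49.1 and 27.7 TPM, led by Prkcd), as were all 4 red blood cell markers (539 and 403.6 TPM) and the 3 tested choroid plexus markers (88.4 and 46.6 TPM for all 4, led by Ttr). The 4 interneuron markers summed to 308 TPM in replicate 1 and 417 TPM in replicate 2, and 3 were called higher in replicate 2. The 8 principal neuron markers summed to 2219 and 2329 TPM, with 1 called higher in replicate 1 and 4 in replicate 2. Prox1, which marks dentate granule cells, had 43.85 TPM in replicate 1 and 63.0 TPM in replicate 2. Astrocyte markers summed to 1552 and 1544 TPM, with 2 of 4 called higher in replicate 1 and 1 higher in replicate 2. Microglial markers summed to 98.5 and 114.6 TPM (0 of 4 and 3 of 4 called), and endothelial markers to 75.05 and 79.5 TPM (1 of 4 and 2 of 4). No marker was at 0 counts in both libraries, and the principal neuron marker Slc17a7, a vesicular glutamate transporter, was abundant at 663 and 687 TPM. The part of these shifts in the ratios of the immediate early genes was not tested.

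The 36 transcripts of the 10 genes divided unevenly. In 8 of the 10 genes 1 transcript held more than 50% of the gene's TPM on average. In 8 the same transcript led in both libraries (all but Arc and Npas4). The share of all genes that meet either condition was not computed, so these counts do not set the 10 genes apart. Jun has 1 annotated transcript and meets both conditions by definition. Junb-201 held 98.3% in replicate 1 and 99.5% in replicate 2. Egr1-202 held 86.1% and 86.2%, and the other Egr1 transcript, Egr1-201, starts upstream at 34859823. Fosb-201, which encodes the full-length protein of 338 codons, held 89.5% and 83.0%.

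Fosb-206, whose coding sequence of 237 codons has the length of ΔFosB, had 0 counts in replicate 1 and 3.25 in replicate 2, with posterior standard deviations of 6.62 and 5.28 counts. In the kallisto-layout table it had 10.1 and 1.06 counts. Both counts lie within those standard deviations or change with the table, so a level of the truncated form was not detectable at this depth. Egr2-201 held 83.0% in replicate 1 and 54.2% in replicate 2, on 55 and 51.7 counts.

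**Figure D4:**
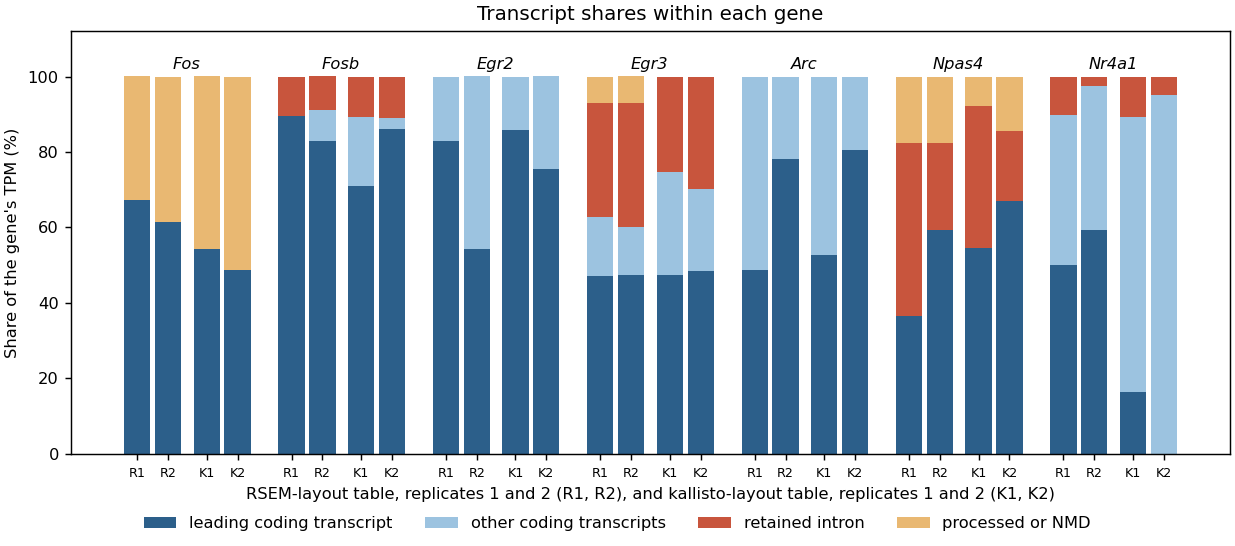
Share of the TPM of 7 of the 10 genes in the leading coding transcript (the coding transcript with the highest mean share in the RSEM-layout table), other coding transcripts, retained-intron transcripts, and processed or nonsense-mediated decay (NMD) transcripts, for replicates 1 and 2 in the RSEM-layout table (R1, R2) and the kallisto-layout table (K1, K2). Npas4 has a larger retained-intron share in replicate 1 than in replicate 2 in both tables, and Nr4a1 is divided differently by the tables.

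Transcripts not annotated as protein-coding were listed for 6 of the 10 genes, and in 3 of these (Fos, Egr3 and Npas4) they held a larger share of TPM than the median gene in both libraries. Over 10140 protein-coding genes with such transcripts and a mean count of 50 or more, that median was 17.8% in replicate 1 and 15.5% in replicate 2. Since a median divides genes evenly, 3 of 6 above it is no larger a part than among those genes. In Npas4 the share was 63.5% and 40.8%. Its retained-intron transcript Npas4-202 had 151 counts in replicate 1 and 61.0 in replicate 2, with posterior standard deviations of 18.1 and 11.8. The spliced coding transcript Npas4-201 had 114 and 149 counts, with 19.3 and 15.5. The higher total count of Npas4 in replicate 1 thus lay in the retained-intron transcript. These counts are not scaled for depth. Npas4-201 had 1.61 TPM in replicate 1 and 1.97 TPM in replicate 2, a gap that was not tested against the uncertainty of read assignment. In the kallisto-layout table Npas4-202 had 139 and 52.6 counts and Npas4-201 had 191.8 and 181.4. The direction for Npas4-201 therefore depended on the table, while that for Npas4-202 did not.

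In Egr3 the share was 37.1% in replicate 1 and 39.9% in replicate 2, mostly in the retained-intron transcript Egr3-202 (692 and 975 counts). Coding Egr3-204 had 1105 and 1430 counts, so both transcripts were lower in replicate 1. In Fos the processed transcripts held 32.7% and 38.6% of TPM but 14.6% and 17.7% of counts, because they are shorter than Fos-201. Fos-201 had 189 counts in replicate 1 and 132 in replicate 2.

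Arc was divided between near-identical transcripts, and Nr4a1 was divided differently by the tables. Arc-201 and Arc-202 are 3055 and 3054 bases long with the same coding length of 396 codons. Arc-201 had 832.5 counts in replicate 1 and 1190 in replicate 2, against 877.5 and 331 for Arc-202, with posterior standard deviations of 122 and 121 counts for each. The transcripts thus lay within that uncertainty of each other in replicate 1 and beyond it in replicate 2. Arc-201 held 48.7% and 78.2% of the gene's TPM in the RSEM-layout table, and 52.8% and 80.4% in the kallisto-layout table. Nr4a1-201 held 50.1% and 59.4% in the RSEM-layout table, but in the kallisto-layout table Nr4a1-202, which starts upstream at 101254269, held 70.4% and 95.0%. Both transcripts encode 601 codons. By mean share over both libraries, Nr4a1 was the only one of the 10 genes whose leading transcript differed between the tables. In replicate 1 alone Arc and Npas4 differed too, with Arc-202 and Npas4-202 leading in the RSEM-layout table and Arc-201 and Npas4-201 in the kallisto-layout table.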

How the data were processed

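Gene values were expected counts (estimated reads per gene, not normalised) and TPM deposited by the authors, in the layout of RSEM per the file headers. Transcript tables in that layout give each transcript's percent of its gene's TPM, per the file headers, and a posterior standard deviation that measures uncertainty of read assignment (a deposited signal). A further deposited transcript table has the layout of kallisto, with estimated counts and TPM. Notes deposited with the tables name the build mm10 and GENCODE M21. The sources used here do not give aligner, settings or versions.

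Of 81881 entries, 55536 were genes and 97 spike-ins. Another 26248 had a number for a name, held 2.67e-05% and 9.4e-06% of the counts of replicates 1 and 2, and were left out. Expected counts were rounded for the exact two-sided binomial test between libraries, with TMM library sizes (factors 0.995 and 1.005, edgeR 4.0.16, R 4.3.3), a mean count of at least 10 over both libraries, a prior count of 0.5 in log2 ratios, and p-values adjusted by Benjamini-Hochberg across the tested genes (threshold 0.05). With 1 group of 2 libraries p-values measure only differences between these libraries, and intervals cover counting error only. The limit for an observed 0 is 3 counts, which is 0.103 CPM in replicate 1 and 0.0945 CPM in replicate 2. With 2 libraries an exact sign-flip test has a smallest p of 0.5, so levels of genes were compared by a rule of size without a test. The scripts were tested on simulated data. Alternatives were DESeq2 1.42.0 size factors, total counts, spike-in totals, other count filters, the kallisto-layout counts and an edgeR exact test. Motifs and gene structure were read from RefSeq promoter windows and from GENCODE M21 transcripts, and expressed genes are protein-coding genes with a mean TPM of at least 1 whose leading coding transcript has an annotated 3′ UTR. Other values were computed with Python 3.11.15, scipy 1.17.1 and pandas 2.3.3.

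The genes and all lists were chosen with earlier results of these data known. Besides the 10 genes and 6 relatives, each other list names up to 4 genes with the highest mean TPM, genes under a mean TPM of 1 and up to 6 of the widest log2 ratio among those called, and up to 2 genes of a marker list. A gene of the upstream list is not reported here. Of the listed symbols, 3 were matched through RefSeq synonyms.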

Additional observations from a re-analysis of the deposited data

How the results depend on the processing

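The count of immediate early genes called between libraries was 5 or 6 under each scaling, filter and table tried with the binomial test, and 0 with the edgeR exact test that assumes a coefficient of variation of 0.1 (3 had an unadjusted p under 0.05). The 21 calls among the other lists were 6 higher in replicate 1 and 15 in replicate 2. They became 34 with spike-in totals (3 and 31), where 35.6% of all genes were called. With that edgeR test they became 0, and 1 of 21 other rapid genes and 1 of 14 delayed genes had an unadjusted p under 0.05. Under the same test 1182 of all 18322 genes had an unadjusted p under 0.05. That test called 120 of all genes higher in replicate 1 and 53 in replicate 2. Among log2 ratios called with TMM or with spike-in totals, those of Nrn1 (-0.09), Crebbp (-0.10) and Hdac4 (-0.01) had the opposite sign with spike-in totals. Other ratios near 0 that neither called, such as that of Nr4a1 (-0.01), changed sign too. The median level of the 10 genes was 28.5 TPM in the kallisto-layout table and 46.9 TPM when scaled over protein-coding genes and 21.5 to 22.9 TPM with either library alone. Differing neighbours numbered 1 at a log2 threshold of 1, and 3 to 4 with either library alone. Genes with a leading transcript numbered 4 at a share of 80%, and 8 to 9 with either library alone. The pair Junb and Jun passed the rule in the kallisto-layout table (-0.65) and in replicate 2 alone (-0.60), and the pair Nr4a1 and Nr4a3 missed a threshold of 1. Of the other settings for the 10 genes' ratios, 58 gave the same call, 2 gained one and 10 lost one. No paired analysis was possible because there is 1 group. With 2 libraries the spread between animals is not resolved, and Egr2, at 56 and 73 counts, allows only wide intervals.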
